A study of Danio rerio with 8 samples.

Results

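The genes described here are 10 genes used as labels of macrophages and microglia in zebrafish: marco, mpeg1.1, grna, ctss2.2, cyba, apoeb, irf8, lygl1, lgals9l1 and lcp1. They were taken by symbol from the authors' deposited table of 1293 genes, which had itself been filtered for a difference between the groups, so that each of the 10 was already known to differ in the authors' comparison. The RNA-seq data cover whole embryos at 53 hours post fertilisation (hpf): 4 pools of iqgap1-/- embryos chosen because they had hemorrhaged, and 4 pools of wild-type embryos, with 20 embryos per pool according to the design text, although the extraction protocol mentions single larvae. Since every mutant pool was selected for hemorrhage, genotype and hemorrhage cannot be told apart, and the labels name neither the allele nor the clutches behind the pools. The p-values therefore set the difference between the groups against the spread between these pools, which may be technical in part.

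Macrophages of the zebrafish embryo arise first from yolk-associated precursors, spread through the tissues and engulf dying cells, debris and microbes. Some enter the brain and retina and settle there as microglia. Their differentiation needs the transcription factor irf8, and mature cells carry scavenger receptors on the surface, a pore-forming protein and proteases for digestion in phagosomes and lysosomes, and an oxidase that makes superoxide. Red cells that leak into tissue are among the material that macrophages clear.

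Most of these macrophage transcripts were lower in the mutant pools. Of the 10 genes, 6 fell (marco, grna, ctss2.2, mpeg1.1, cyba and apoeb), 3 had lower values that did not pass the test (irf8, lygl1 and lgals9l1), and lcp1, which marks leukocytes in general, rose. The fall was largest for marco, which was 3.49-fold lower in the mutants, and it was between 1.60-fold and 2.31-fold for the other called genes. All 10 passed the low-count filter. Over the 1126 genes of the table that were tested, 29.3% were called lower, 37.5% higher and 66.8% in either direction (quasi-likelihood F test in edgeR, adjusted p under 0.05). The median log2 fold change was -0.92 over the 10 genes and 0.70 over all tested genes. In none of the 10 did the groups overlap: 9 had every mutant pool below every wild-type pool, as 38.9% of the tested genes did, and lcp1 had every mutant pool above every wild-type pool, as 51.8% did. These directions were fixed by the authors' selection, which holds 9 of the genes as lower and 1 as higher, and by the choice of the genes with earlier results known, so the counts describe the 10 genes and test nothing about macrophage genes at large. In whole-embryo RNA, fewer cells of a type and less RNA per cell cannot be told apart.

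**Figure D1:**
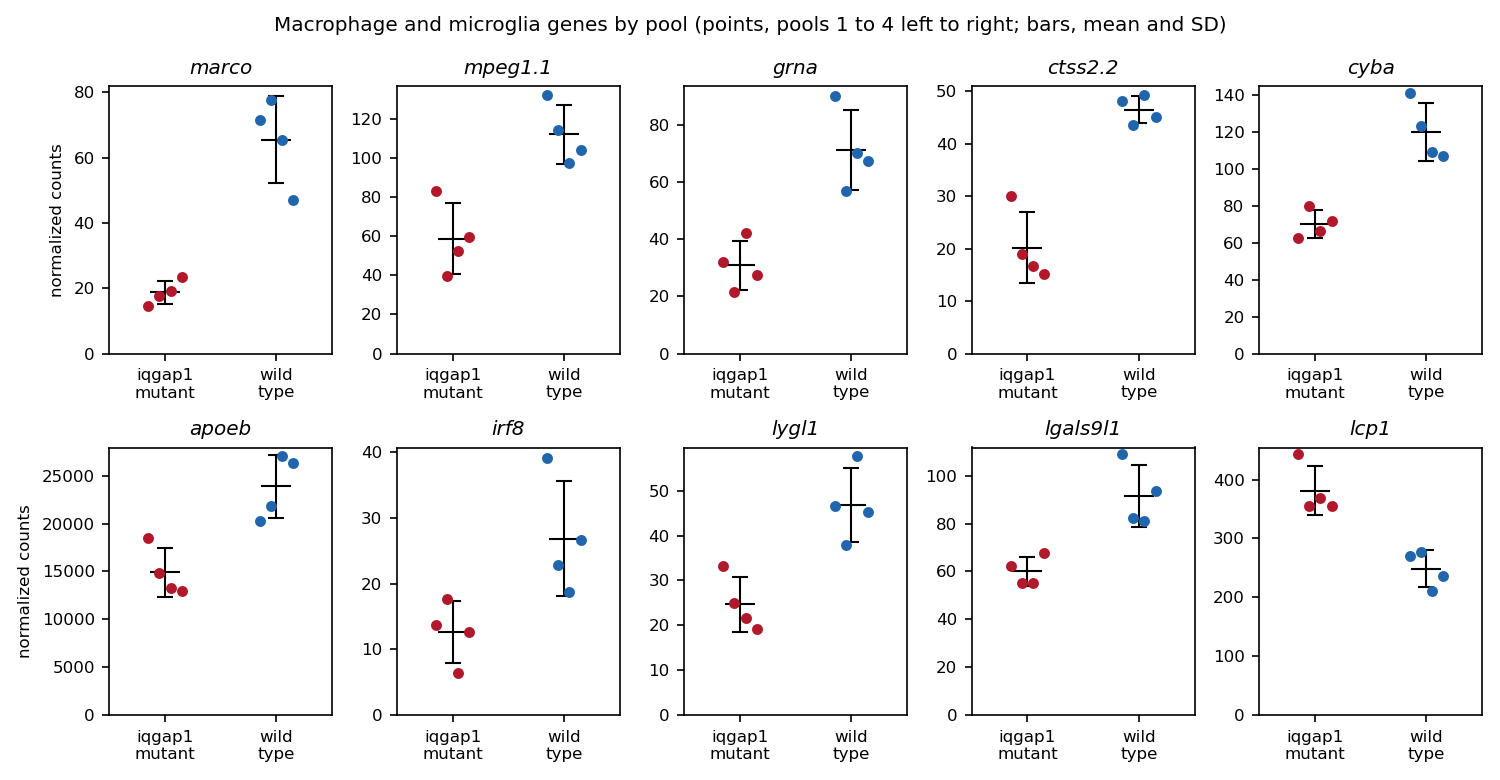
Normalized counts (vertical axis, from 0) of the 10 genes in the 4 iqgap1 mutant pools and the 4 wild-type pools, with the mean and SD of each group as bars. Every mutant point lies below every wild-type point for 9 genes, and for lcp1 the mutant pools lie between 356 and 443, above the wild-type pools at 211 to 277.

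Values are RSEM expected counts, an estimate of reads per gene that need not be whole, divided by a size factor for each pool. Their sum over the 1293 genes of the table was 354272 in the smallest library and 552331 in the largest, and since the table holds selected genes only this is no measure of depth. The iqgap1 transcript was 1111, 970, 902 and 1245 normalized counts in mutant pools 1 to 4, against 2185, 2118, 2212 and 2115 in wild-type pools 1 to 4, so that the genotype labels and the measured transcript go the same way in all 8 pools. Levels are not compared between genes, because no transcript lengths were used.

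The scavenger receptor gene marco encodes a surface receptor through which macrophages bind bacteria and modified lipoproteins. It had 14.6, 17.7, 19.2 and 23.3 normalized counts in mutant pools 1 to 4, against 71.7, 77.8, 65.3 and 47.0 in wild-type pools 1 to 4. The groups were wide apart, with no mutant pool above 23.3 and no wild-type pool below 47.0. The group means were 18.7 ± 3.60 in the mutants and 65.5 ± 13.3 in wild type (SD, n = 4 each), and the fitted log2 fold change was -1.80 ± 0.23 (SE; quasi-likelihood F test in edgeR, adjusted p = 0.00155). It was the only one of the 10 whose call was kept in every fit with 1 library left out, with adjusted p between 0.00182 and 0.01. In the authors' deposited table it ranks 169 of the 532 lower genes by fold change.

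Perforin-2, the product of mpeg1.1, forms pores in the membranes of engulfed microbes, and its promoter is the usual driver of macrophage reporters in zebrafish. Its values were 83, 39.6, 52.4 and 59.3 normalized counts in mutant pools 1 to 4 and 132, 114, 97.5 and 104 in wild-type pools 1 to 4. Mutant pool 1 stood closest to wild type. With means of 58.6 ± 18.2 in the mutants and 112 ± 15.1 in wild type (SD, n = 4 each), the gene fell by 0.93 ± 0.21 on the log2 scale (SE; quasi-likelihood F test in edgeR, adjusted p = 0.047). The call lay near the threshold: without mutant pool 1 the log2 fold change was -1.15 with an adjusted p of 0.00631, while leaving out any of the other 7 libraries gave an adjusted p between 0.0661 and 0.162 in the same test.

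Progranulin, encoded by grna, is a secreted and lysosomal protein that macrophages and microglia need for normal lysosome function. The mutant pools 1 to 4 had 32.2, 21.6, 42.2 and 27.5 normalized counts, against 90.3, 56.8, 70.4 and 67.3 in the wild-type pools. Mutant pool 3 was the highest of its group here, unlike for mpeg1.1. The means were 30.9 ± 8.70 in the mutants and 71.2 ± 14.0 in wild type (SD, n = 4 each). The gene fell by 1.21 ± 0.23 on the log2 scale (SE; quasi-likelihood F test in edgeR, adjusted p = 0.0157). The call was lost without mutant pool 2 (adjusted p = 0.0578) and without mutant pool 4 (adjusted p = 0.066).

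A cathepsin S gene, ctss2.2, encodes a cysteine protease that digests proteins in the endosomes and lysosomes of antigen-presenting cells. It had 30.1, 18.9, 16.6 and 15.2 normalized counts in mutant pools 1 to 4, and 48.2, 43.6, 49.2 and 45 in wild-type pools 1 to 4. The wild-type pools were close together, with a coefficient of variation of 5.71%, whereas that of the mutant pools was 33.5%, mutant pool 1 being the high one. The means were 20.2 ± 6.78 in the mutants and 46.5 ± 2.65 in wild type (SD, n = 4 each). The log2 fold change was -1.20 ± 0.24 (SE; quasi-likelihood F test in edgeR, adjusted p = 0.0204). It passed without mutant pool 1 (adjusted p = 0.00311) and without wild-type pool 2 (adjusted p = 0.044), and in the other 6 fits with 1 library left out the adjusted p was between 0.0552 and 0.0839.

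The membrane subunit p22phox of the phagocyte NADPH oxidase is encoded by cyba; neutrophils use the same enzyme. Mutant pools 1 to 4 had 62.5, 80.1, 66.5 and 72.0 normalized counts, against 141, 123, 109 and 107 in wild-type pools 1 to 4. Here mutant pool 1 was the lowest of its group. The gene averaged 70.3 ± 7.65 in the mutants and 120 ± 15.4 in wild type (SD, n = 4 each) and fell by 0.77 ± 0.15 on the log2 scale (SE; quasi-likelihood F test in edgeR, adjusted p = 0.0158). Without mutant pool 3 the adjusted p was 0.061, and without wild-type pool 1 it was 0.0529.

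Among the effectors with no call was lygl1, a goose-type lysozyme gene whose product cleaves bacterial cell walls. It had 33.2, 25, 21.7 and 19.1 normalized counts in mutant pools 1 to 4 and 46.6, 37.9, 57.7 and 45.2 in wild-type pools 1 to 4, with a fitted log2 fold change of -0.91 ± 0.23 (SE; quasi-likelihood F test in edgeR, adjusted p = 0.0731). The groups were separated by the gap between 33.2 and 37.9. Without mutant pool 1 the gene passed, with a log2 fold change of -1.09 and an adjusted p of 0.0294. The galectin-9-like gene lgals9l1, which encodes a sugar-binding lectin, had 62.1, 55.1, 55.2 and 67.6 counts in mutant pools 1 to 4 and 109, 82.5, 81.2 and 93.7 in wild-type pools 1 to 4. Its log2 fold change was -0.61 ± 0.16 (SE; quasi-likelihood F test in edgeR, adjusted p = 0.0815), the smallest among the 9 genes with lower values.

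The transcription factor gene irf8, which directs myeloid precursors towards macrophages and away from neutrophils, had the lowest counts of the 10. Mutant pools 1 to 4 had 13.7, 17.7, 6.39 and 12.7 normalized counts, against 39.1, 22.9, 18.7 and 26.7 in wild-type pools 1 to 4. Mutant pool 2 and wild-type pool 3 differed by about 1 count. The means of 12.6 ± 4.68 in the mutants and 26.9 ± 8.81 in wild type (SD, n = 4 each) correspond to a fitted log2 fold change of -1.06 ± 0.33 (SE; quasi-likelihood F test in edgeR, adjusted p = 0.207). Expected counts of 5 to 17 in the mutants limit the precision, and the authors' deposited table gives the gene an adjusted p of 0.0357.

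Apolipoprotein E, encoded by apoeb, carries lipids and is a strong label of microglia in the zebrafish brain; the yolk syncytial layer, which feeds yolk lipid to the embryo, expresses it too. Mutant pools 1 to 4 had 18517, 14798, 13269 and 12995 normalized counts, against 20276, 21860, 27103 and 26296 in wild-type pools 1 to 4. Mutant pool 1 and wild-type pool 1 were nearest to each other. The gene averaged 14895 ± 2542 in the mutants and 23884 ± 3331 in wild type (SD, n = 4 each) and fell by 0.68 ± 0.16 on the log2 scale (SE; quasi-likelihood F test in edgeR, adjusted p = 0.0452). Without mutant pool 1 the log2 fold change was -0.80 with an adjusted p of 0.00938, and leaving out any of the other 7 libraries gave an adjusted p between 0.0509 and 0.193. It also missed the threshold with limma-trend on log2 values with a pseudocount of 1 (adjusted p = 0.0618). Of 23 apolipoprotein symbols 2 were in the table. The sister gene apoea had a log2 fold change of -0.63 ± 0.17 and did not pass (quasi-likelihood F test in edgeR, adjusted p = 0.0992). How much of the apoeb signal came from microglia and how much from the yolk cannot be read from whole embryos.

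L-plastin, encoded by lcp1, bundles actin filaments and is made by macrophages and neutrophils alike. It was the 1 gene of the 10 that rose, with 443, 356, 369 and 356 normalized counts in mutant pools 1 to 4 against 271, 277, 211 and 236 in wild-type pools 1 to 4. The mean was 381 ± 41.7 in the mutants and 249 ± 31.2 in wild type (SD, n = 4 each), and the fitted log2 fold change was 0.62 ± 0.13 (SE; quasi-likelihood F test in edgeR, adjusted p = 0.0241). The call was lost without mutant pool 2 (adjusted p = 0.0593), mutant pool 3 (0.0676), wild-type pool 3 (0.0768) or wild-type pool 4 (0.0869). It also depended on the scale between the groups: size factors computed over the table's own genes by the median of ratios (RLE), which lower the scale of mutant over wild type (a log2 shift of -0.52), left lcp1 at 0.11, and TMM, with a shift of -0.38, left it at 0.24, neither of them called. The other 9 genes had lower log2 fold changes under both, so the direction of each of the 10 was the same in all 3 scalings, and irf8, lygl1 and lgals9l1 passed the test under RLE (adjusted p = 0.0226, 0.00843 and 0.00224) and under TMM (0.0486, 0.0156 and 0.00621). Both scalings assume that most genes do not differ, which a table of genes selected for a difference, 58.9% of them higher, does not meet. Calls gained or lost under them show the effect of a change of scale and do not settle which scale is right.

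**Figure D2:**
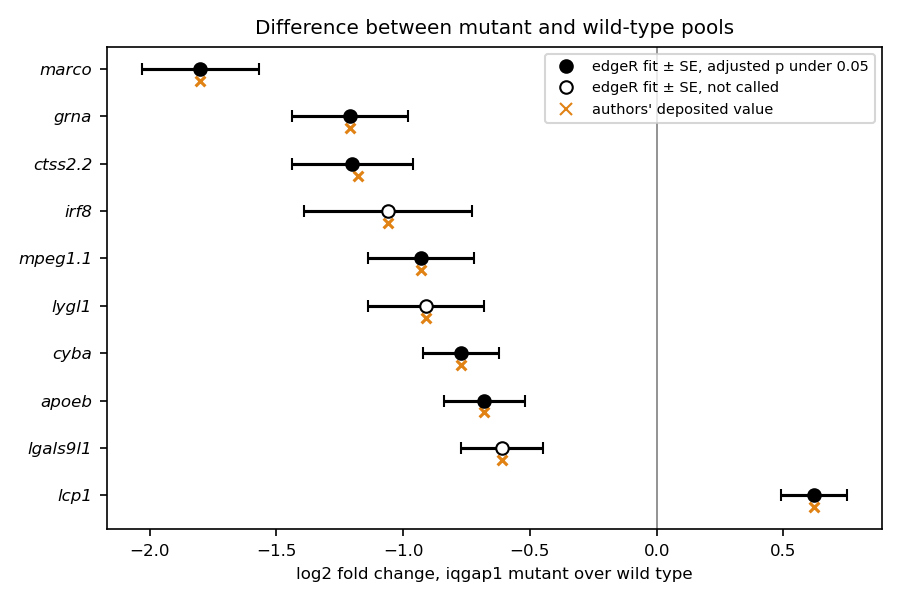
Log2 fold change (horizontal axis, iqgap1 mutant over wild type) of each gene with its SE, filled where the quasi-likelihood F test in edgeR passed at an adjusted p under 0.05, with the authors' deposited value as a cross. The values run from -1.80 for marco to 0.62 for lcp1, and the 3 open circles are irf8, lygl1 and lgals9l1.

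**Figure D3:**
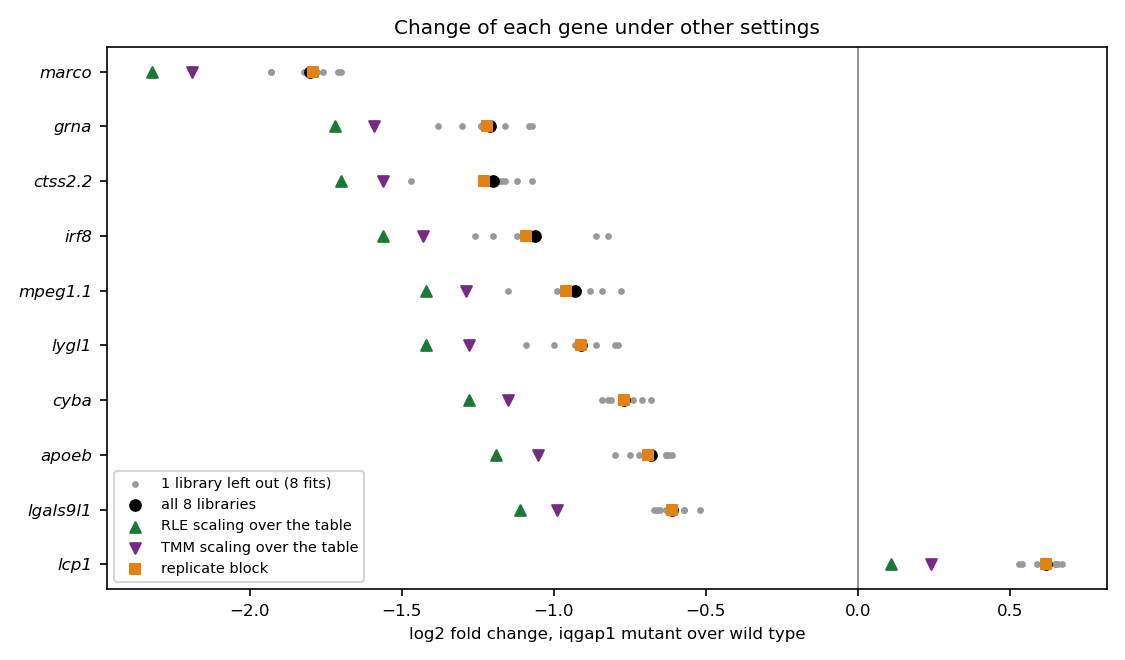
Log2 fold change (horizontal axis, iqgap1 mutant over wild type) of each gene with all 8 libraries, with each library left out in turn, with a replicate block and with 2 other scalings. RLE and TMM scaling move every gene to lower values, lcp1 to 0.11 and 0.24, and no gene crosses 0.

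Because a ratio of 2 genes within a pool does not depend on the scale between pools, each gene was also divided by lcp1 and by mpeg1.1. All 9 ratios to lcp1 were lower in every mutant pool than in any wild-type pool, as 41.1% of the 1125 other tested genes were (15.2% were higher in every mutant pool), an order that the opposite directions of the chosen genes largely fix. The log2 ratio of mpeg1.1 to lcp1 was -2.75 ± 0.33 in the mutants and -1.15 ± 0.11 in wild type (SD, n = 4 each). For marco over lcp1 it was -4.36 ± 0.41 in the mutants and -1.94 ± 0.27 in wild type. The difference between the groups was smallest for lgals9l1 over lcp1, at -1.22 on the log2 scale.

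The lower genes were also set against mpeg1.1. Of the 8 ratios 7 overlapped between the groups, and 1 was lower in every mutant pool. Of the 1125 other tested genes, 5.87% were lower in every mutant pool relative to mpeg1.1 and 56.7% higher. Without the ratio, 38.9% of the tested genes were lower in every mutant pool. The overlap of the 7 ratios is largely fixed by the shared lower direction of the chosen genes. Whether it is particular to macrophage genes was not tested. The gene without overlap was marco, with log2 ratios of -2.50, -1.16, -1.45 and -1.35 in mutant pools 1 to 4 against -0.88, -0.55, -0.58 and -1.15 in wild-type pools 1 to 4, so that mutant pool 2 and wild-type pool 4 were next to each other. The differences of the overlapping ratios, mutant minus wild type, lay between -0.28 for ctss2.2 and 0.37 for lgals9l1. No test was run on these ratios, which were chosen after the values were seen.

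**Figure D4:**
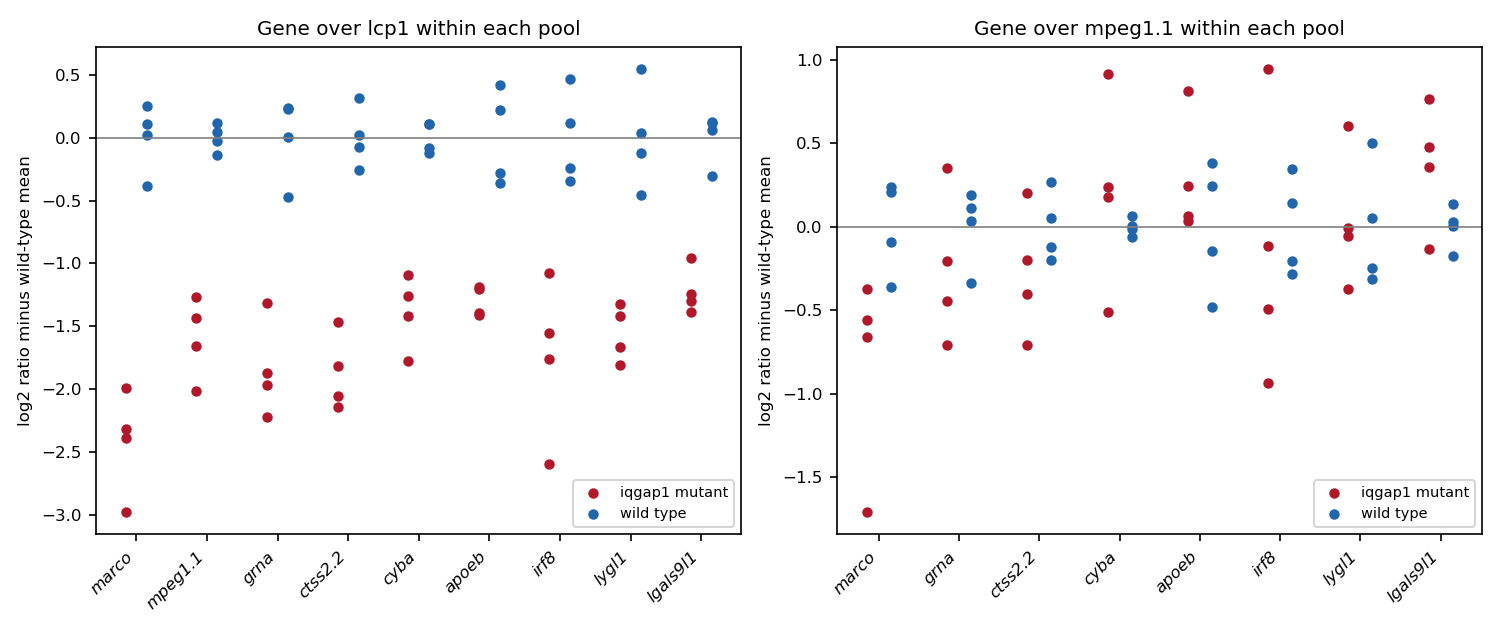
Log2 ratio of each gene to lcp1 (left) and to mpeg1.1 (right) in each pool, minus the mean of the wild-type pools (vertical axis), for mutant and wild-type pools. Over lcp1 no mutant point reaches a wild-type point, and over mpeg1.1 only marco is free of overlap.

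Pools of 1 group did not share 1 order across the genes. Among the mutant pools, pool 1 was the highest for 5 of the 10 genes (mpeg1.1, ctss2.2, apoeb, lygl1 and lcp1) and the lowest for 2 (marco and cyba). Among the wild-type pools, pool 1 was the highest for 5 (mpeg1.1, grna, cyba, irf8 and lgals9l1) and the lowest for 1 (apoeb). Summed over the 8 lower genes other than apoeb, the normalized counts were 331, 276, 280 and 297 in mutant pools 1 to 4 and 678, 558, 549 and 536 in wild-type pools 1 to 4, so the sum was 296 ± 25.3 in the mutants and 580 ± 65.6 in wild type (SD, n = 4 each). Mutant pool 1 and wild-type pool 1 had the highest sums of their groups. Genes entered the sum because their values were lower in the mutants, so the difference between the groups was fixed by that choice. Genes with more counts also weigh more in the sum.

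Several of these genes have close relatives, and the deposited counts show in part where reads were shared. RSEM splits a read that fits several genes into fractions, so a count that is whole in every library shows no such split. A shared read that is assigned in full leaves no fraction either, so whole counts do not exclude shared reads. The counts of marco, cyba, apoeb, irf8 and lygl1 were whole in all 8 libraries. Those of grna were whole in 6 libraries, of mpeg1.1 in 5 and of ctss2.2 in 1, while lgals9l1 and lcp1 were whole in none. For these 5 genes the values rest in part on reads assigned by estimate and are uncertain to that extent. The number of whole libraries does not measure that extent. For mpeg1.1 the counts that were not whole were 142.12, 114.96 and 112.98, in wild-type pools 1, 3 and 4. The RefSeq annotation of GRCz12tu was used for names and gene order only. It holds 3 mpeg1 genes, 3 cathepsin S genes and 5 lgals9l genes, of which 1 each is in the table.

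Other genes of macrophages and of the same pathways were looked up from lists. Every gene of the table had been selected for a difference, and of all tested genes 29.3% were called lower and 37.5% higher. The direction of each list gene was fixed by that selection, so the list counts describe the genes found and test nothing about a cell type or pathway. Of 29 macrophage symbols, 8 were in the table, and 5 fell while 3 did not pass. The only one of the 8 not already described was lgals3bpb, which encodes a galectin-binding secreted glycoprotein. Its counts were whole in 1 library only, so its values also rest in part on reads assigned by estimate. It had 21.9, 13.5, 7.15 and 12.9 normalized counts in mutant pools 1 to 4, against 85.6, 69.2, 75.5 and 52.6 in wild-type pools 1 to 4, and fell by 2.31 ± 0.28 on the log2 scale (SE; quasi-likelihood F test in edgeR, adjusted p = 0.00123). The remaining 21 symbols, among them csf1ra, the receptor for the growth factor that macrophages depend on, were not analysed here. The table holds only genes kept by the authors' filter, so a symbol without a row gives no evidence of a fall. Of 22 microglia symbols only apoeb was in the table, so markers that separate microglia from other macrophages, such as p2ry12, were not analysed here and the label rests on macrophage genes.

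Among lysosomal genes and cathepsins 5 of 43 symbols were in the table, with 4 called lower and 1 higher and a median log2 fold change of -1.20. The cathepsin K gene ctsk, a collagen-digesting protease that lies in the same gene cluster as ctss2.2, fell to 476 ± 38.4 normalized counts in the mutants, against 840 ± 91.8 in wild type (SD, n = 4 each; quasi-likelihood F test in edgeR, adjusted p = 0.00293). The cathepsin L-like gene ctsll had a mean of 17.8 ± 8.83 in the mutants and 94.0 ± 46.3 in wild type and was called lower. Wild-type pool 1 was at 32.6 and the others between 98.2 and 145. Mutant pool 4, the highest of its group at 30.7, lay close to wild-type pool 1. The ctsll call was lost without mutant pool 2 (adjusted p = 0.0624) and without mutant pool 3 (adjusted p = 0.0639) in the same test. The cathepsin L gene ctslb, known from hatching gland cells, was the higher one, at 843 ± 187 in the mutants and 338 ± 72.0 in wild type, but was not called under RLE scaling. Of 18 galectins and galectin-binding genes, 4 were in the table, of which 3 were called lower. Besides lgals3bpb these were lgals1l1, with 378 ± 69.3 counts in the mutants and 976 ± 312 in wild type, and lgals8b, with 91.8 ± 9.77 in the mutants and 206 ± 47.3 in wild type (SD, n = 4 each).

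From 14 symbols of the phagocyte oxidase and its relatives only cyba was in the table, and from 27 symbols of scavenger receptors and of the uptake of dying cells only marco. Of 18 genes of macrophage development 2 were in the table, irf8 and ikzf1, a transcription factor of blood progenitors and lymphocytes with a log2 fold change of 0.95 and no call (quasi-likelihood F test in edgeR, adjusted p = 0.0668). Among 13 irf genes, irf4a was also in the table but did not pass the count filter. Of 35 genes of macrophage activation 4 were in the table. The cyclooxygenase gene ptgs2b rose to 196 ± 22.5 normalized counts in the mutants, against 42.7 ± 13.6 in wild type, and the matrix metalloproteinase gene mmp9 rose to 310 ± 73.2, against 133 ± 9.84 (SD, n = 4 each); socs3a had a log2 fold change of 1.17 with no call, and saa was not tested. Under RLE scaling mmp9 was not called (log2 fold change 0.71). Of 12 antimicrobial genes 6 were in the table: lyz, npsn and lect2l rose, mpeg1.1 and the liver peptide gene leap2 fell, and lygl1 had no call. For leap2 the log2 fold change was -2.45 ± 0.32 (SE). The 3 rises were not called under RLE or TMM scaling, and that of lect2l was also lost without mutant pool 2 (adjusted p = 0.0549), mutant pool 4 (0.0566) or wild-type pool 3 (0.0586).

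Markers of other blood cells were also looked up. Their list counts carry the same limit of a selected table, in which 37.5% of all tested genes were called higher and 29.3% lower. Of 28 neutrophil symbols 8 were in the table, 7 called higher and 1, the metalloprotease gene adam8b, called lower. The higher ones include mmp9, lyz, npsn and lect2l, already given under macrophage activation or antimicrobial genes. Their rises are thus counted on more than 1 list and are not separate observations. The summed level of all 8 neutrophil genes, adam8b included, was 5255 to 6701 normalized counts in the mutant pools and 3010 to 3245 in the wild-type pools. In such a sum genes with more counts weigh more, and the selection of the table fixed the direction of each gene. Of 32 erythrocyte symbols 26 were in the table, with 24 called higher and 0 lower, and their sum was 166920 to 218201 in the mutant pools and 53819 to 87530 in the wild-type pools. Of 14 thrombocyte symbols 2 were in the table and 1, gp9, was called higher, and of 19 lymphocyte symbols only ikzf1 was in the table. The calls depended on the scale. Under RLE scaling 0 of the neutrophil, 7 of the erythrocyte and 0 of the thrombocyte genes were called higher. Under TMM the numbers were 3, 12 and 0. Fitted values were higher for 7, 26 and 2 genes of these lists in each of the scalings. RLE and TMM assume that most genes do not differ, which this table of selected genes does not meet. The only gene of 25 pan-leukocyte symbols in the table was lcp1. The part of these other cells in the values of lcp1 and of the macrophage genes was not tested.

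**Figure D5:**
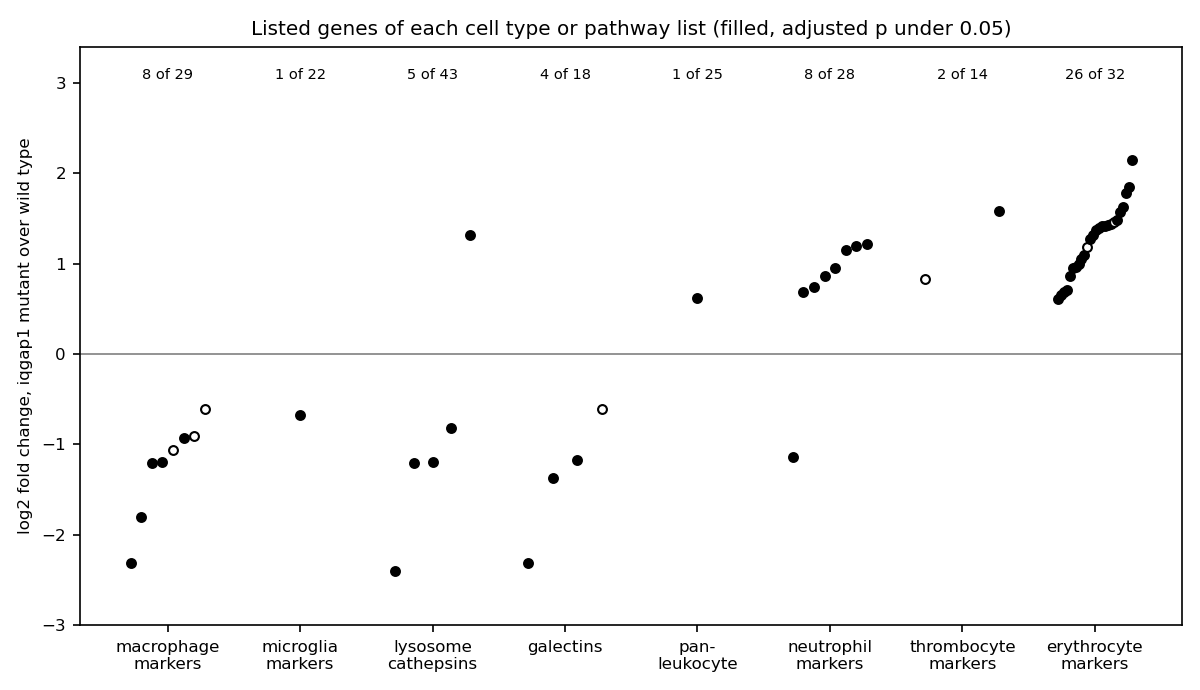
Log2 fold change (vertical axis, iqgap1 mutant over wild type) of each tested gene on 8 lists of cell types and pathways, filled where the quasi-likelihood F test in edgeR passed, with the number of list symbols in the table above each. The macrophage genes lie between -2.31 and -0.61, and the erythrocyte genes between 0.61 and 2.15.

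The genes whose profile over the 8 pools was most like that of mpeg1.1, among 429 named genes whose mean count was at least 50, were kazald3, l3mbtl1a, HUS1B, msrb1a and kng1, with a root mean square difference of the centred log2 values of 0.18 to 0.24. For marco they were epdl2, histh1l, ern1, crtac1a and tes, at 0.18 to 0.31. The 10 genes were left out of these 429, and lgals3bpb, the only other macrophage symbol in the table, had a mean under 50. No gene of the macrophage list could therefore appear, and the likeness is a description over pools that share the difference between the groups.

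Neighbouring genes were examined after the values were seen, using the RefSeq gene order. Of the 60 places within 3 protein-coding genes on either side of the 10 genes, 3 were taken by genes of the table: ctsk near ctss2.2, uraha near cyba, and si:ch211-103n10.5 next to mpeg1.1. While mpeg1.1 fell, si:ch211-103n10.5 had 76.2, 50, 58.8 and 58.3 normalized counts in mutant pools 1 to 4 against 3.72, 8.98, 7.64 and 0.922 in wild-type pools 1 to 4. The fitted log2 fold change was 3.49 ± 0.39 (SE; quasi-likelihood F test in edgeR, adjusted p = 0.000802). The hydrolase gene uraha fell, with 210 ± 36.9 counts in the mutants and 473 ± 35.4 in wild type (SD, n = 4 each). The neighbours of apoeb in the apolipoprotein cluster, apoc1 among them, were not analysed here.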

How the data were processed

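Whole-embryo RNA was sequenced after ribosomal RNA depletion and random priming, per the labels' protocols. Per the submitters' processing notes, the tools were Trimmomatic, STAR 2.7 and RSEM with the build danRer11. For 1293 genes the authors deposited the log2 fold change and linear ratio of their comparison, its p-value raw and adjusted, and 1 value per library; strand setting and comparison tool: not given in the sources used here. Values per library as deposited behave as RSEM expected counts multiplied by 1 of 8 factors (0.9784 to 1.0252) in a cyclic order that starts differently in each row; dividing by them made all 10152 nonzero values multiples of 0.01, and 56.5% whole (tolerance 0.005). The expected counts were rounded for tests. Size factors came from the median of ratios within groups over genes averaging at least 50 counts, and 1 offset between groups was set to the authors' log2 fold changes, since the table holds selected genes only (TMM was run as an alternative). After this, 95.7% of the 648 genes at this level came within 0.01 of the authors' log2 fold change.

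The comparison of mutant and wild-type pools used edgeR 4.0.16 (R 4.3.3; filterByExpr at 10 and 15, glmQLFit, glmQLFTest), which tested 1126 genes and left out 167. Benjamini-Hochberg adjustment was over the 26889 genes the authors had adjusted over. The 25596 genes outside the table and the 167 left out were taken at a p of 1. Genes near the threshold are called less readily than in the deposited table, where the raw p-values of the 10 genes were also smaller. For apoeb the raw p was 0.00122 here (quasi-likelihood F test in edgeR) and 1.6e-06 in the authors' comparison. How far the test and the adjustment each account for this was not tested. The SE was derived from the F statistic, and the fits were tested on simulated data. Alternatives used DESeq2 1.42.0, limma 3.58.1, other scalings, filters, adjustment and threshold, a replicate block, the deposited values unchanged, and each library left out with its size factors kept. No libraries of 1 group agreed within sampling noise (smallest chi-square per degree of freedom 2.52). The genes and lists were chosen with earlier results of these data known; the text names the 10 genes, called genes of each list, the 5 genes most like mpeg1.1 and marco, and, chosen after values were seen, neighbours in the table. All 10 Ensembl gene IDs and symbols matched the name tables.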

Additional observations from a re-analysis of the deposited data

Results flagged for a closer look

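Each group of 4 pools was examined for a pool far from the other 3 by Dixon's test at its 95% critical value, for the 10 genes and iqgap1. About 1 in 20 groups would stand apart by chance, or 1.1 of the 22 examined, and 1 did. Mutant pool 1 had 443 normalized counts of lcp1, and the other mutant pools had 356 to 369. Without mutant pool 1 the log2 fold change of lcp1 was 0.53, with an adjusted p of 0.0405 (quasi-likelihood F test in edgeR).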

How the results depend on the processing

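The 6 genes called lower and 1 called higher among the 10 became 2 and 1 at a mean of 50 or more counts. At that mean marco, ctss2.2, irf8 and lygl1 were not tested. Both mpeg1.1 (adjusted p = 0.0831) and apoeb (0.0605) were tested there but missed the threshold (quasi-likelihood F test in edgeR). At an adjusted p under 0.01 the numbers were 1 and 0. RLE and TMM scaling each gave 9 lower and 0 higher. With 1 library left out, the lower calls ranged from 2 to 7 and the higher calls from 0 to 1, with fewer pools in each fit. No direction changed among 186 alternative values for the 10 genes; 44 lost and 10 gained a call. With the replicate number as a block, 3 genes were called lower and 0 higher; the numbers share no stated source, deviations of same-numbered pools correlated between -0.25 and 0.09, and none matched its own number best. Over the table, 330 lower and 422 higher calls became 465 and 113 with RLE, 451 and 162 with TMM, 187 and 272 at a mean of 50 or more, 185 and 248 at the stricter threshold, and 465 and 661 when adjusted over the table only, where all 10 genes were called. With 1 library left out they ranged from 232 to 321 lower and from 303 to 478 higher. RLE and TMM moved the scale of mutant over wild type by -0.52 and -0.38 in log2, and the stricter threshold and the smaller adjustment changed the cut-off itself. Other than these and the fewer pools or genes named, the cause of these moves was not tested. Low counts limit the precision for irf8, ctss2.2, marco and lygl1, whose means over the 8 pools are under 50.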
